A study of Mus musculus with 8 samples.

Results

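The transcriptomes of mouse embryonic stem cells (mESCs) that overexpressed KLF3 or GFP for 72 hours (each from an inserted transgene) were compared across the whole genome, and the changes are described by gene family and cell function. Of the 8 samples of the series, the 4 overexpression samples were used, 2 for KLF3 and 2 for GFP, and each condition was given as the authors' mean of its 2 samples. The table listed 14319 protein-coding genes of the 14709 in the series. A gene was included when the mean of both conditions was at least 1 FPKM, which left 11179 genes and left out 3140. At this limit, 11 genes had a mean of 1 FPKM and were included, and 13 genes at 0.995 FPKM were left out.

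All 4 samples were mESCs with the strain label C57BL/6(F) x 129/sv(M), grown on gelatin in serum with leukaemia inhibitory factor, and all were labelled with 72 hours of overexpression. The methods describe a parental line (R26) with the doxycycline-dependent activator M2rtTA in Rosa26 and an FRT site in Col1a1. Klf3 or GFP was placed at that FRT site, clones were selected on feeder cells with hygromycin B, and doxycycline induced the transgene. Control cells therefore shared the transactivator, the insertion site, the selection and the induction, and differed in the inserted gene. The sources used here do not say whether the 2 samples of a condition came from separate clones, so an effect of the inserted gene and a difference between picked clones cannot be told apart. Poly(A) RNA was sequenced, and the number of reads behind each value is unknown.

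KLF3 is a zinc finger protein of the Kruppel-like family, which binds CACCC boxes and GC-rich elements through zinc fingers at its C-terminus. It is known mainly as a repressor that recruits the corepressor CtBP through its N-terminal part, in contrast to KLF2, KLF4 and KLF5, which activate genes of the pluripotency network in mESCs. mESCs correspond to the epiblast of the blastocyst. The neighbouring lineages of the early embryo are the trophectoderm, which forms the placenta and is marked by keratins, and the primitive endoderm, which forms the yolk sac endoderm, lays down basement membrane and absorbs maternal nutrients.

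Expression was measured in FPKM, fragments scaled by transcript length and by the total of mapped fragments, with 0.1 as the lowest value in the table. A change is the difference of log2(FPKM + 1) between KLF3-overexpressing and GFP-overexpressing cells. The added 1 understates the change of genes at low levels. Over all listed genes the sum was 612621 FPKM for the GFP condition and 834882 FPKM for the KLF3 condition. The median change of all genes was -0.18, so that most genes read slightly lower in KLF3-overexpressing cells, and every change below is centred on this median. Levels are given as GFP-overexpressing vs KLF3-overexpressing cells in FPKM, with the centred log2 change in parentheses. A gene was called higher when the centred change was above 1, a 2-fold difference, and lower when it was below -1. With 1 mean per condition the spread between replicates is unknown, and no test could be run, so that a call is a size and not a significance.

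By this rule, 1137 genes (10.2% of the genes) were higher, 667 (5.97%) were lower and 9375 lay between. Counts of each group below are to be set against these shares. Without centring the split turned, with 738 genes (6.6%) higher and 1133 (10.1%) lower. Among the called genes, 63% were higher with centring and 39.4% without it. By more than 4-fold after centring, 95 genes were higher and 26 lower. The quartiles of all genes lay at -0.45 and 0.51. Called genes differed in size, since the median genomic span was 7.86 kb for higher genes, 41 kb for lower genes and 21.7 kb for all. The median change therefore stands beside the median span and the median after a smooth trend with span was removed (the span-adjusted median) for most groups of short or long genes. The part of gene length in any group's change was not tested. Of the higher genes, 135 were below 1 FPKM in GFP-overexpressing cells, and of the lower genes 110 were below 1 FPKM in KLF3-overexpressing cells, so that these passed the expression limit through the condition in which they were high. Of the 10962 genes with at least 1 FPKM in GFP-overexpressing cells, 9.14% were higher.

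**Figure D1:**
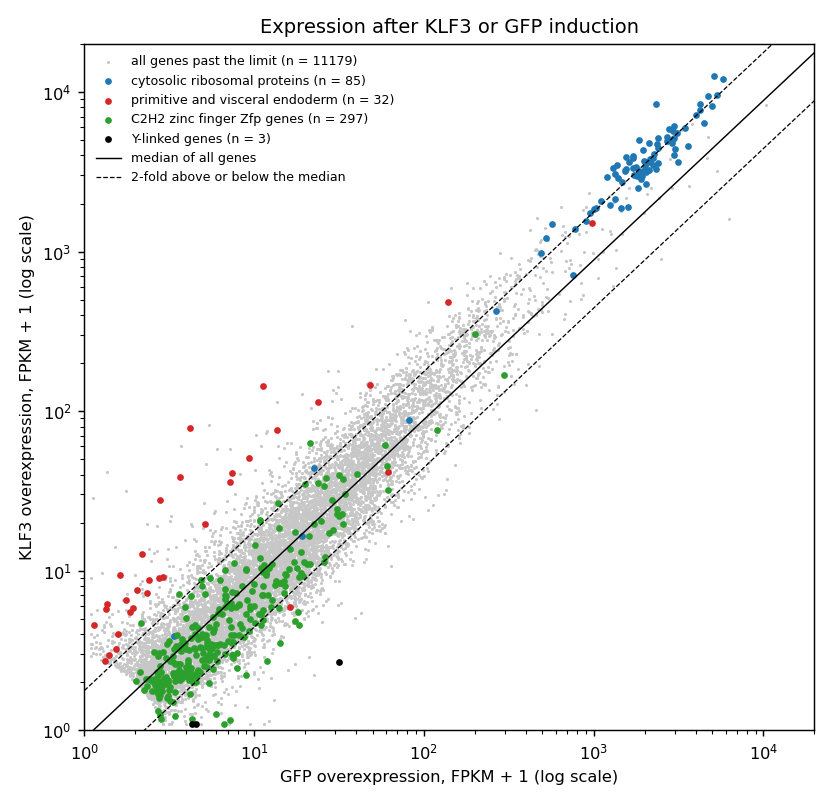
Each point is a gene, with its FPKM + 1 under GFP on the horizontal axis and under KLF3 on the vertical axis, both on log scales; the solid line marks the median of all 11179 genes and the dashed lines 2-fold above and below it. Cytosolic ribosomal protein genes (85 genes) lie around the upper dashed line at the top of the range, endoderm genes (32 genes) mostly above it, Zfp genes (297 genes) mostly below the solid line, and the 3 Y-linked genes below the lower dashed line.

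The Klf3 row read 58.7 vs 47.8 FPKM (-0.11) and was thus not higher in the column labelled KLF3. The study made mESCs with native and with codon-optimized Klf3. It detected no KLF3 protein from the native sequence and a trace from the codon-optimized one, and sequenced cells described as overexpressing KLF3. The sources used here do not name the sequence these cells carried. A native transgene would add reads to this row and a codon-optimized one need not, so the label could not be checked by it. The mESC identity was present in both conditions. All 10 mESC markers set for this check were above 1 FPKM in both, with Pou5f1 at 883 vs 989.7 FPKM (0.34), Sox2 at 157 vs 104 FPKM (-0.42) and Dppa5a at 3794 vs 6334 FPKM (0.92). Of the 10, 0 were called higher and 2 lower, Nanog and Klf5, which are described with the pluripotency group. Of the 14 fibroblast markers, 8 were in the table. Their sum was 26.6 vs 83.0 FPKM, and Tagln and Acta2, genes of contractile actin, made up most of it in both. The defining fibroblast collagens were near the lowest value, with Col1a1 at 0.23 vs 0.29 FPKM and Col1a2 at 0.18 vs 0.4 FPKM. In a longer fibroblast and feeder list, 5 genes were higher and 1 lower of 11 past the limit, with Timp2, Timp3 and S100a4 higher beside Tagln and Acta2, and Fn1 lower. The part of fibroblasts in any change was not tested. Genes often used as references read 4703 vs 5218 FPKM (0.33) for Gapdh, 2061 vs 2278 FPKM (0.32) for Hsp90ab1 and 678 vs 1239.7 FPKM (1.05) for Actb, so that Actb was itself called higher.

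The genes with the largest rises included several secreted and membrane-associated proteins. S100g, a cytosolic calcium-binding protein of absorptive epithelia, stood at 0.13 vs 27.6 FPKM (4.84). Glipr1, of the cysteine-rich secretory protein superfamily, was at 0.77 vs 30.7 FPKM (4.34). Lgals2, a galectin that binds beta-galactosides, was at 2.73 vs 59.1 FPKM (4.19). S100g and Glipr1 were below the limit of 1 FPKM in GFP-overexpressing cells, and Lgals2 was above it. Cryab, a small heat shock protein, was at 5.02 vs 56.6 FPKM (3.44). Tinagl1, a secreted matricellular protein, was at 4.21 vs 45.5 FPKM (3.34). Htra1, a secreted serine protease, was at 6.26 vs 56.6 FPKM (3.17). Clu, the extracellular chaperone clusterin, was at 12.7 vs 113 FPKM (3.24). Fxyd3, which regulates the sodium pump, was listed at the lowest value of 0.1 FPKM in GFP-overexpressing cells and at 7.94 FPKM in KLF3-overexpressing cells. The 15 largest rises were completed by Spink1, Srgn, Ctsh, Cited1, Eif4ebp3, Krt18 and Gadd45g, which are described with their groups, and 2 genes with clone-style names ranked among them. S100g, Glipr1, Lgals2, Eif4ebp3 and Htra1 overlap another gene of the table, and how reads were divided between overlapping genes is not given in the sources used here.

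The largest falls were spread over unrelated functions. Eif2s3y, the Y-linked copy of a translation initiation factor subunit, was at 30.9 vs 1.67 FPKM (-3.4). B3gnt2, a glycosyltransferase that builds poly-N-acetyllactosamine chains, was at 11.3 vs 0.14 FPKM (-3.25) and overlaps another gene of the table. Ncoa4, the receptor that delivers ferritin to autophagosomes, was at 21.4 vs 1.23 FPKM (-3.15). These 3 genes were each lower by more than 8-fold on the centred scale. Taf9, a subunit of TFIID that overlaps Ak6, was at 41.7 vs 4.43 FPKM (-2.8). Wee1, the kinase that holds back entry into mitosis, was at 11.6 vs 1.11 FPKM (-2.4). Aurkc, a kinase of the meiotic chromosomal passenger complex, was at 19.9 vs 1.86 FPKM (-2.69), and Mid1, a microtubule-associated ubiquitin ligase, was at 16.4 vs 1.59 FPKM (-2.56). The importin Ipo7 was at 62.8 vs 9.73 FPKM (-2.39) and the nucleoporin-like Nupl1 at 14.8 vs 1.37 FPKM (-2.55). Arhgap5, Zfp59, Zfp445, Gstm3 and Gpa33 were also among the 15 largest, with centred changes between -2.53 and -2.18, and 6 genes with clone-style names ranked among them.

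Of all gene groups described, that of primitive and visceral endoderm genes had the highest median change. The table held 37 members of this group. Of 32 members past the expression limit, 29 were higher, against 10.2% of all genes, and 1 was lower, with a median change of 2.06 against 0 for all genes. Their median span was 29.4 kb, longer than that of all genes, and the span-adjusted median was 2.03. Of the higher members, 11 were below 1 FPKM in GFP-overexpressing cells and passed the limit through the KLF3 condition, and of the 21 members at or above 1 FPKM in GFP-overexpressing cells, 18 were higher. All 8 endoderm transcription factors past the limit were higher, in a list added after values were seen. Of these, 3 were below 1 FPKM in GFP-overexpressing cells and passed the limit through the KLF3 condition. The other 5 were at or above 1 FPKM in GFP-overexpressing cells. Gata4 was at 4.16 vs 18.7 FPKM (2.11) and Gata6, the first specifier of the primitive endoderm, at 1.05 vs 6.54 FPKM (2.06). Sox17 and Sox7, which act downstream of GATA6, were at 1.41 vs 7.7 FPKM (2.03) and 0.4 vs 1.97 FPKM (1.26). Foxa2 was at 0.34 vs 4.77 FPKM (2.29) and Foxq1 at 1.33 vs 6.24 FPKM (1.81). The transcriptional coactivator Cited1 had the largest change, 1.8 vs 26.8 FPKM (3.49). Hnf4a, a regulator of the visceral endoderm, stayed below the limit at 0.44 vs 0.97 FPKM. In KLF3-overexpressing cells these factors nevertheless lay far below Pou5f1 at 989.7 FPKM. In bulk samples such as these, fewer cells of a type and less RNA per cell cannot be told apart.

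The absorptive and secretory genes of the visceral endoderm moved with the transcription factors. Cubn and Amn, which together form the cubam receptor for intrinsic factor and albumin, were at 1.76 vs 7.93 FPKM (1.87) and 1.18 vs 11.7 FPKM (2.73). Lrp2, the giant endocytic receptor megalin, was at 1.91 vs 8.05 FPKM (1.82), and Lrpap1, its chaperone in the endoplasmic reticulum, at 68.8 vs 225 FPKM (1.88). Dab2, the clathrin adaptor for these receptors, was at 6.26 vs 34.7 FPKM (2.48). All 5 genes of this uptake route were higher. Pdzk1, a scaffold with PDZ domains that binds transporters at the apical membrane, went the other way at 9.9 vs 1.47 FPKM (-1.96). Among secreted proteins and receptors, the trypsin inhibitor Spink1 was at 3.22 vs 76.8 FPKM (4.38) and the proteoglycan Srgn at 10.3 vs 142 FPKM (3.84). Stra6, the receptor for retinol-binding protein, was at 0.33 vs 1.7 FPKM (1.2), and the growth factor receptor Pdgfra at 0.53 vs 2.21 FPKM (1.25). The water channel Aqp8 was at 0.37 vs 5.2 FPKM (2.36). Emb, a cell surface glycoprotein, was at 60.5 vs 40.7 FPKM (-0.38) and was not called. Fst and Plat stayed below the limit, at 0.13 vs 0.82 FPKM and 0.41 vs 1.02 FPKM.

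Lipid and retinol carriers, secreted in quantity by the yolk sac, gave 10 higher and 0 lower genes of 18, with a median of 1.14. Of the higher genes, 6 were below 1 FPKM in GFP-overexpressing cells. Apoa1, the main protein of high-density lipoprotein, was at 0.63 vs 8.41 FPKM (2.71), and Apom, a carrier of sphingosine 1-phosphate, at 0.76 vs 5.54 FPKM (2.07). Ttr, which carries thyroxine and retinol-binding protein, was at 0.14 vs 3.53 FPKM (2.17), and Rbp4, the retinol-binding protein itself, at 0.93 vs 4.84 FPKM (1.78). These 4 carriers were below 1 FPKM in GFP-overexpressing cells. Apoe and Apoc1 were already abundant there, and read 977 vs 1503 FPKM (0.8) and 152 vs 283 FPKM (1.08), so that Apoe was not called.

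Basement membrane genes were called in both directions. Of 18 genes, 8 were higher and 3 were lower, with a median of 0.31 (-0.048 when both conditions were scaled to the same sum without ribosomal protein genes and not centred) and a span-adjusted median of 0.53. After the span trend was removed 8 genes were higher and 0 lower, so that all 3 lower calls ended. The 3 chains of laminin-111 were all higher, with Lama1 at 6.38 vs 39.7 FPKM (2.64), Lamb1 at 22.7 vs 113 FPKM (2.44) and Lamc1 at 46.9 vs 144 FPKM (1.78). Both chains of the common collagen IV heterotrimer moved together, Col4a1 at 12.7 vs 75.5 FPKM (2.66) and Col4a2 at 8.32 vs 49.5 FPKM (2.62). Sparc, which binds collagen IV, was at 138 vs 484 FPKM (1.98). Other matrix components of the group were lower, with fibronectin (Fn1) at 163 vs 62.1 FPKM (-1.2). Nid1, which links laminin to collagen IV, was at 15.3 vs 4.88 FPKM (-1.29) and Fbln1, fibulin 1, at 19.3 vs 7.79 FPKM (-1.03). The laminin and collagen IV chains are also members of the endoderm group, so these counts are not independent of it. Collagen hydroxylation and crosslinking genes gave 8 higher and 0 lower genes of 18 (median 0.95), among them the collagen chaperone Serpinh1 at 73.6 vs 181 FPKM (1.47) and the prolyl 4-hydroxylase subunits P4ha2 at 12.6 vs 28.1 FPKM (1.28) and P4ha1 at 21.1 vs 41.6 FPKM (1.13). Ppib, a prolyl isomerase of procollagen folding, was at 236 vs 489 FPKM (1.23).

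**Figure D2:**
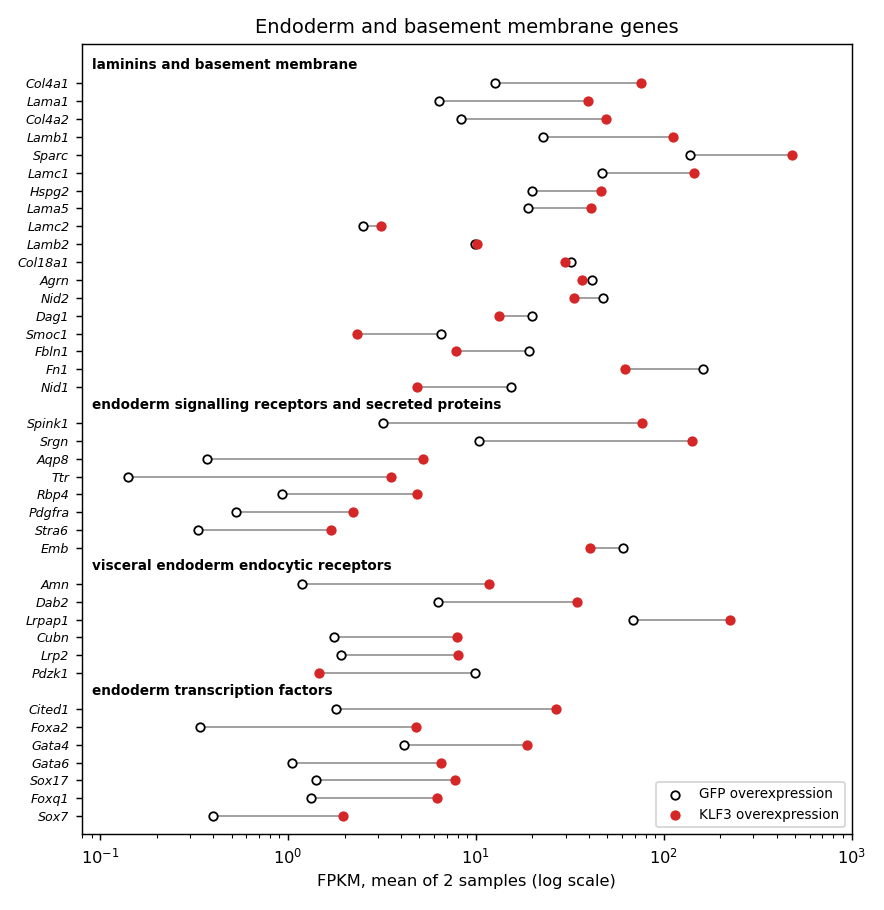
FPKM of each gene (horizontal axis, log scale; authors' mean of 2 samples) under GFP (open) and KLF3 (filled), by role, with members past the expression limit, apart from 1 transcription factor, and Sparc shown once. All endoderm transcription factors drawn were higher in KLF3-overexpressing cells, as were 5 of 6 endocytic receptor genes, while Fn1, Nid1, Fbln1 and Pdzk1 were lower.

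The 5 genes of the 8-cell stage that the study names were all higher. The study picked them as representative genes of that stage in the sorted cells of its other experiment, and they are described here with their values in these samples already known. Gadd45g, a stress sensor that binds PCNA and activates MAP kinase signalling, was at 1.33 vs 18.7 FPKM (3.26). Krt8, a type II keratin, was at 26.3 vs 176 FPKM (2.88), and Adam15, a membrane-bound metalloprotease and disintegrin, at 13 vs 49.5 FPKM (2.03). Fgf3, a secreted fibroblast growth factor, was at 0.69 vs 3.11 FPKM (1.46), and Pdzd3, a scaffold protein with PDZ domains, at 0.67 vs 3.06 FPKM (1.46). The first 3 were readily detected in KLF3-overexpressing cells, while Fgf3 and Pdzd3 remained at about 3 FPKM. Fgf3 and Pdzd3 were below 1 FPKM in GFP-overexpressing cells and passed the limit through the KLF3 condition.

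Because KLF3 binds CACCC boxes, the 250 bases before the RefSeq start site of these 5 genes (GRCm38.p6) are shown, 5′ to 3′ on the gene's strand, in lower case with each CACCC in capitals, or GGGTG where the match is on the opposite strand. The windows are chr13:51846425-51846674 (plus strand) for Gadd45g, chr15:102004343-102004592 (minus strand) for Krt8, chr3:89350029-89350278 (minus strand) for Adam15, chr7:144838362-144838611 (plus strand) for Fgf3 and chr9:44251465-44251714 (minus strand) for Pdzd3.
Gadd45g: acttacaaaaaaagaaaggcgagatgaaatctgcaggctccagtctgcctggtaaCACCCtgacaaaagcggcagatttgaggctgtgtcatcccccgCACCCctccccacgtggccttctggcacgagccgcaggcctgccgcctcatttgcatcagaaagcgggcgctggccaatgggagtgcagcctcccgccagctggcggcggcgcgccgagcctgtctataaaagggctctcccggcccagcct
Krt8: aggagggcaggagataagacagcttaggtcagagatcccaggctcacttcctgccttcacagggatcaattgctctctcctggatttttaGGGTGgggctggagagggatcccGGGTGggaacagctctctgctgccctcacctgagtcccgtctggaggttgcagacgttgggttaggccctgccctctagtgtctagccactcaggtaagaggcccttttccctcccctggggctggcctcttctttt
Adam15: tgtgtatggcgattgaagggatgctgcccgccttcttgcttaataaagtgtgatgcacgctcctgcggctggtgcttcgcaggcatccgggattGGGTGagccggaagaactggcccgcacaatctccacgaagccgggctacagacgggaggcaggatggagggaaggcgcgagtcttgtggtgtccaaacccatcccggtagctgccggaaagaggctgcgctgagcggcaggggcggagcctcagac
Fgf3: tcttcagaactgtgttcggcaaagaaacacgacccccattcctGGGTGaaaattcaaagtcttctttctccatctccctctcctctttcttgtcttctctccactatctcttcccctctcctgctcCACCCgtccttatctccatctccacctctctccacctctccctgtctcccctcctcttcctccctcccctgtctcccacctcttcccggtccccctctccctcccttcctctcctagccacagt
Pdzd3: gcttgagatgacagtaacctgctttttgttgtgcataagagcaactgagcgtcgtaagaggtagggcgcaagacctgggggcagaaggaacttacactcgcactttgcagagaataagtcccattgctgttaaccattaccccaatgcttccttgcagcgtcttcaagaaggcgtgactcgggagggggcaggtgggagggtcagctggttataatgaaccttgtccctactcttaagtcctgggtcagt
Gadd45g, Krt8 and Fgf3 held 2 matches each, Adam15 held 1 and Pdzd3 held 0 in this window. In Gadd45g both lay on the gene's strand, in Krt8 both lay on the opposite strand, and Fgf3 held 1 on each. Among 8964 genes past the limit for which a window was found (80.2%), 57.0% held at least 1 CACCC on either strand within the same 250 bases. The longer form CCNCNCCC, which overlaps CACCC in some cases, was present in 65.7% of these windows. Windows were found for 79.2% of the higher and 76.3% of the lower genes, under the 80% needed here, so the shares of promoters with a match were not compared between them. A match is a match of letters and does not show binding.

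Trophoblast genes and keratins gave large changes for part of their members. Of 19 trophoblast genes past the limit, 11 were higher and 0 lower, with a median of 1.06. Of those higher, 4 were below 1 FPKM in GFP-overexpressing cells. The simple epithelial keratins, which pair as type I and type II filaments, had high levels, with Krt18 at 36.6 vs 339.6 FPKM (3.36) and Krt19 at 9.28 vs 69.7 FPKM (2.96), beside Krt8 given above. Krt7 was at 4.14 vs 8.76 FPKM (1.1). The X-linked homeobox genes Rhox6 and Rhox9, expressed in placenta and germ cells, were at 10.8 vs 71.4 FPKM (2.8) and 12.8 vs 59.5 FPKM (2.31), and Rhox5 was at 82.5 vs 315 FPKM (2.1). Rhox genes are close paralogs, and how reads shared between them were counted is not given. Plac1, a placental protein of the cell surface, was at 0.19 vs 4.65 FPKM (2.43), and Hand1, a factor of trophoblast giant cells and mesoderm, at 0.83 vs 4.16 FPKM (1.68). Of the factors that establish the trophectoderm, Cdx2 and Gata3 were below the limit, at 0.1 vs 0.6 FPKM and 0.22 vs 0.66 FPKM, and Eomes was at 3.04 vs 3.43 FPKM (0.31).

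Imprinted genes showed a few large rises. Of 28 past the limit, 7 were higher and 1 lower, with a median of 0.2. Among the higher genes, 2 were below 1 FPKM in GFP-overexpressing cells. Igf2, the paternally expressed growth factor, was at 10.9 vs 73.5 FPKM (2.82). Peg10, a paternally expressed gene of retrotransposon origin needed in the placenta, was at 9.96 vs 59.5 FPKM (2.64). Cdkn1c, the maternally expressed cyclin-dependent kinase inhibitor p57, was at 8.07 vs 27.4 FPKM (1.83), and the ubiquitin ligase Ube3a at 10.9 vs 29.6 FPKM (1.54).

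The pluripotency group as a whole lay below the median. Of 34 genes, all past the limit, 4 were higher and 5 were lower, with a median of -0.43 (span-adjusted -0.41). Nanog, a core factor of self-renewal, was at 255 vs 103 FPKM (-1.12) and was called lower. Prdm14, a repressor that keeps mESCs naive, was at 11.9 vs 3.2 FPKM (-1.44). Klf5 was at 39.9 vs 14.9 FPKM (-1.19). Close to the limit of the call, Esrrb was at 138 vs 60.3 FPKM (-1.0) and Klf4 at 47 vs 20.2 FPKM (-1.0), and neither was called. Zfp42 (Rex1), a marker of naive mESCs, was at 295 vs 166 FPKM (-0.64). Other members went up, with Trim28, the corepressor of KRAB zinc finger proteins, at 644 vs 1892 FPKM (1.73). Gbx2, a homeobox target of LIF signalling, was at 9.17 vs 26.7 FPKM (1.62), and Sall4, a zinc finger factor of the core network, at 43.3 vs 90.5 FPKM (1.23). Genes of the transition to the formative epiblast gave 2 higher and 2 lower genes of 17. The bHLH factor Tcf15 was at 28.2 vs 135 FPKM (2.4) and the de novo methyltransferase Dnmt3a at 23.2 vs 50.1 FPKM (1.26), whereas the zinc finger factors Zic2 and Zic5 were at 3.91 vs 0.42 FPKM (-1.61) and 3.52 vs 0.74 FPKM (-1.2). Zic2 and Zic5 were below 1 FPKM in KLF3-overexpressing cells and passed the limit through the GFP condition. 

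The germ layer, germ cell and 2-cell-like lists gave calls in different directions. Of 12 ectoderm and neural genes past the limit, 0 were higher and 1 was lower, Pax6 at 5.4 vs 0.45 FPKM (-1.96). Pax6 thus passed the limit through the GFP condition. The mesoderm list gave 5 higher genes of 7, with Gata4, Hand1 and Pdgfra given above, which the endoderm and trophoblast lists also hold, Runx1 at 0.39 vs 1.63 FPKM (1.1) and Cdx1 at 5.78 vs 11.6 FPKM (1.07). Of these 5, 3 were below 1 FPKM in GFP-overexpressing cells and passed the limit through the KLF3 condition. The primitive streak gene T was below the limit at 0.61 vs 0.16 FPKM, as was Mixl1 at 0.15 vs 0.26 FPKM. Among 2-cell-like genes, 3 were higher and 3 lower of 12, and the higher ones were Ddit4l, P4ha2 and Slc6a8, which are not particular to this state. The Zscan4 genes, telomere regulators of which several near-identical copies share reads, read 3.17 vs 0.68 FPKM (-1.13) for Zscan4f, 1.85 vs 0.17 FPKM (-1.1) for Zscan4e and 2.41 vs 1.27 FPKM (-0.41) for Zscan4c. Zscan4f and Zscan4e passed the limit through the GFP condition. Germ cell genes gave 1 higher and 2 lower of 22, with Prdm1 (BLIMP1), the specifier of primordial germ cells, at 3.33 vs 0.26 FPKM (-1.6) and the meiotic cohesin Smc1b at 3.42 vs 0.4 FPKM (-1.48). Prdm1 and Smc1b were below 1 FPKM in KLF3-overexpressing cells and passed the limit through the GFP condition.

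Among Kruppel-like and Sp factors, 1 gene was higher and 4 were lower of 16, with a median of -0.52. The lower genes were Klf9 at 20.9 vs 4.69 FPKM (-1.77), Klf10 at 32.4 vs 12.6 FPKM (-1.11), Klf5 given above and Sp3, a ubiquitous GC-box factor, at 23.8 vs 7.35 FPKM (-1.39). Klf6 was higher at 5.21 vs 11 FPKM (1.13). Klf2, the most abundant of the family, was at 83.9 vs 102 FPKM (0.46) and Klf16 at 11.8 vs 12 FPKM (0.19), neither called. Klf8, a related repressor whose gene is known as a target of KLF3 in blood cells, was at 3.26 vs 1.04 FPKM (-0.88). Lgals3, galectin 3, and Fam132a, a secreted protein, are also known as genes that KLF3 represses, and read 4.6 vs 9.68 FPKM (1.11) and 7.08 vs 9.82 FPKM (0.6). Genes of the CtBP corepressor complex mostly lay between the limits, with 1 higher and 1 lower of 15. The exceptions were Ehmt2, the histone H3 lysine 9 methyltransferase G9a, at 39.8 vs 101 FPKM (1.5) and Rcor3, a CoREST scaffold, at 2.72 vs 0.63 FPKM (-1.01). Rcor3 passed the limit through the GFP condition.

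In each signalling pathway most genes lay between the limits. Medians of the Hippo, Nodal and BMP, Wnt and FGF lists lay between -0.21 and -0.11. Over all genes 10.2% were higher and 5.97% lower, and the counts of these lists are not read as results about the pathways. In the Hippo pathway, 4 of 25 genes were higher (16.0%) and 1 lower (4.0%). Cyr61 and Ctgf, secreted matricellular proteins that are standard targets of YAP and TEAD, were at 8.36 vs 51.2 FPKM (2.66) and 7.22 vs 39.1 FPKM (2.47), and Ankrd1, a further target, at 2.22 vs 8 FPKM (1.66). Nf2, the upstream inhibitor merlin, was at 33.9 vs 13.6 FPKM (-1.08), and Tead2 was at 98.5 vs 83.2 FPKM (-0.06). In the Nodal, activin and BMP pathway 4 of 32 were higher and 4 lower (12.5% each). Id1 and Id3, inhibitors of bHLH factors and direct BMP targets, were at 29.6 vs 129 FPKM (2.27) and 4.01 vs 17.4 FPKM (2.06), and the ligand Bmp4 was at 6.87 vs 19.2 FPKM (1.54). The Nodal antagonist Lefty1, itself a target of Nodal signalling, was at 121 vs 29 FPKM (-1.84) and Lefty2 at 86.1 vs 29.5 FPKM (-1.33). Tdgf1, the Nodal coreceptor Cripto, was at 673 vs 405 FPKM (-0.55).

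In the Wnt list, 3 were higher and 3 lower of 34 (8.82% each), and 2 of the higher were below 1 FPKM in GFP-overexpressing cells. The ligands Wnt7b and Wnt4 were at 1.2 vs 6.7 FPKM (1.99) and 0.24 vs 1.98 FPKM (1.44), whereas Ctnnb1 (beta-catenin) was at 163 vs 70.3 FPKM (-1.03) and Apc, of its destruction complex, at 7.51 vs 2 FPKM (-1.32). The FGF and ERK list gave 4 higher (10.5%) and 1 lower (2.63%) of 38. The GTPase Hras was at 36.6 vs 104 FPKM (1.66) and the kinase Map2k2 at 38 vs 82.9 FPKM (1.28). Fgfbp1, a carrier that releases FGF from the matrix, was at 4.69 vs 15.5 FPKM (1.72). Indian hedgehog (Ihh), a ligand made by the visceral endoderm, was at 0.11 vs 2.49 FPKM (1.83) and the hedgehog target Gli1 at 13.4 vs 5.35 FPKM (-1.01). Immediate early genes gave 5 higher (22.7%) and 1 lower (4.55%) of 22. Myc was at 4.54 vs 16.9 FPKM (1.87), the AP-1 subunits Junb and Fosl1 at 10.2 vs 28 FPKM (1.55) and 0.14 vs 2.82 FPKM (1.92), and Jund at 40.2 vs 78.3 FPKM (1.12). LIF, JAK and STAT genes had a median of -0.44, with Socs3, the feedback inhibitor that LIF induces, at 50.5 vs 42.2 FPKM (-0.07). The STAT3 inhibitor Pias3 was at 19.08 vs 5.16 FPKM (-1.53). In the PI3K and mTOR list, the 4E-binding proteins moved apart, with Eif4ebp3 at 0.51 vs 13.1 FPKM (3.4), Eif4ebp2 at 32.1 vs 10.5 FPKM (-1.34) and the abundant Eif4ebp1 at 506 vs 634 FPKM (0.51). Eif4ebp3 overlaps Ankhd1.

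The contractile actin cytoskeleton gave 13 higher and 3 lower genes of 36, with a median of 0.73 and a span-adjusted median of 0.58, with 8 higher. The actin-binding proteins Tmsb4x and Tagln were at 143 vs 586 FPKM (2.2) and 14.7 vs 62.1 FPKM (2.19), and tropomyosin 2 (Tpm2) at 26.2 vs 91.3 FPKM (1.94). Lamin A/C (Lmna), the nuclear lamina protein that increases with differentiation and stiffness, was at 15.6 vs 62.2 FPKM (2.11). Tmsb10 and Cfl1 (cofilin), the most abundant members, read 1008 vs 1871 FPKM (1.07) and 823 vs 1292 FPKM (0.83), and Tmsb10 was at -0.023 once trends with span, transcript length and GC were removed. Tagln and Acta2, at 7.02 vs 14.9 FPKM (1.17), are also the fibroblast markers whose sum was higher above, where the defining collagens stayed near the lowest value. Of 61 motor protein genes 0 were higher and 8 lower (median -0.37, span 42 kb), and 5 were lower after the span trend was removed (median -0.18). Of the 8 lower, 6 were at or above 1 FPKM in KLF3-overexpressing cells. The mitotic kinesin Kif18a was at 18.8 vs 4.06 FPKM (-1.79) and the transport motor Myo5a at 11.4 vs 3.47 FPKM (-1.29). The light chain Dynll1 was at 549.9 vs 910.3 FPKM (0.91).

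At the cell surface, annexins, S100 proteins and galectins gave 11 higher and 2 lower of 25, with a median of 0.85 (span-adjusted 0.53). S100a6 was at 30.1 vs 178 FPKM (2.71), Anxa3 at 4.08 vs 25.4 FPKM (2.56) and S100a10, the partner of annexin A2, at 111 vs 320.5 FPKM (1.69). Integrin genes stayed mostly between the limits, with 1 of 10 higher, Itgav at 3.05 vs 6.56 FPKM (1.08), and the laminin receptor chains Itgb1 at 63.3 vs 33.8 FPKM (-0.7) and Itga6 at 33.9 vs 17.7 FPKM (-0.72). E-cadherin (Cdh1) was at 102 vs 55.9 FPKM (-0.67). In the junction list, 5 genes were higher (12.5%) and 3 lower (7.5%) of 40, near the shares of all genes. Of the higher genes, 1 was below 1 FPKM in GFP-overexpressing cells. Pkp3 was higher at 18.2 vs 40.1 FPKM (1.28), and claudin 6 (Cldn6) read 54.6 vs 93.3 FPKM (0.94). Among the lower genes, Tjp1 (ZO-1), the scaffold of tight junctions, was at 18.5 vs 5.3 FPKM (-1.45) and the desmosomal cadherin Dsg2 at 11.8 vs 2.96 FPKM (-1.51). The inhibitor of metalloproteases Timp2 was at 4.8 vs 21.9 FPKM (2.16), and the receptor Plxnb2 at 22.1 vs 77.1 FPKM (1.93).

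Cytosolic ribosomal protein genes had the smallest distance between quartiles of all groups with 30 or more genes. Of 85 genes, 45 were higher and 0 lower, with a median of 1.02 and quartiles at 0.85 and 1.22. Together they made up 29.5% of the summed FPKM under GFP and 39.8% under KLF3. Rplp2, of the acidic stalk, had the largest change at 2323 vs 8420.3 FPKM (2.04). Rpl38 was at 1841 vs 5021 FPKM (1.63) and the most abundant, Rpl41 and Rps24, at 5107 vs 12583 FPKM (1.48) and 5761 vs 12087 FPKM (1.25). Without centring, the median of the group was 0.84 and 24 genes were higher. These genes are short, with a median span of 3.23 kb, and the span-adjusted median was 0.43, with 7 genes higher. They also have many processed pseudogenes, and how reads shared with these were counted is not given. Mitochondrial ribosomal proteins gave 30 higher and 0 lower of 76, with a median of 0.81 (span-adjusted 0.45, 12 higher), led by Mrpl52 at 178 vs 529 FPKM (1.75).

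Other parts of the translation machinery were mixed. Initiation and elongation factors gave 10 higher and 5 lower of 51, with a median of 0.38 that turned to -0.018 under the same-sum scaling named above. The helicase Eif4a3, a core of the exon junction complex, was at 111 vs 333 FPKM (1.75), whereas the cap-binding protein Eif4e was at 131 vs 29.3 FPKM (-1.94) and the eIF3 scaffold Eif3a at 151 vs 45.1 FPKM (-1.55). Eef1a1, the most abundant elongation factor, was at 10328 vs 8293 FPKM (-0.14). Ribosome biogenesis factors gave 7 higher and 1 lower of 54. Nucleolin (Ncl) was at 939.6 vs 2322 FPKM (1.48) and Npm1 at 3669 vs 2589.8 FPKM (-0.32). Within the box H/ACA particle, which guides pseudouridylation, Gar1 was at 135 vs 338 FPKM (1.49) but the catalytic subunit Dkc1 at 134 vs 30.8 FPKM (-1.91). Of 34 aminoacyl-tRNA synthetases, 1 was higher, Mars at 106 vs 323 FPKM (1.78), and 1 was lower, Iars at 74.6 vs 26.6 FPKM (-1.28).

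Nuclear-encoded genes of oxidative phosphorylation were higher as a group, with the exception of complex II. Complex I had 19 higher and 0 lower genes of 37 (median 1.01). Complex III had 5 higher of 9 (1.04), complex IV 7 of 12 (1.13) and the ATP synthase list 12 of 20 (1.2), with none lower. The ATP synthase list also holds the inhibitor Atpif1 (0.88, not called) and Minos1 (1.67, called higher), which is not a subunit of the enzyme. Ndufa2, an accessory subunit of complex I, was at 61.4 vs 196 FPKM (1.84), Uqcrq of complex III at 214 vs 586 FPKM (1.63), Cox5b of complex IV at 341 vs 745 FPKM (1.3) and Atp5e, the epsilon subunit of the ATP synthase, at 178 vs 633 FPKM (2.0). The catalytic beta subunit Atp5b was at 1491 vs 3272 FPKM (1.31). The 4 genes of complex II, which also serves the citric acid cycle, lay between -0.32 (Sdha, 97.6 vs 68.7 FPKM) and 0.23 (Sdhd, 115 vs 119 FPKM). Complexes I, III and IV and the ATP synthase have short genes, with median spans from 4.76 to 8.37 kb, and their span-adjusted medians were between 0.61 and 0.79. After the span trend was removed 13, 1, 2 and 6 genes were higher, in this order. Complex II genes had a median span of 20.7 kb and a span-adjusted median of -0.04. Import and chaperone genes of mitochondria gave 12 higher and 1 lower of 30 (median 0.89, span 9.04 kb), led by Timm13 at 41.3 vs 121 FPKM (1.71). After the span trend was removed 3 of them were higher (median 0.41), and without centring 6.

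The 13 proteins encoded by the mitochondrial genome did not follow the nuclear subunits. Their median was 0.06, with 2 higher and 2 lower. These genes had a median span of 0.784 kb, and the span-adjusted median was -0.82, with 0 higher and 3 lower. mt-Co1, the catalytic subunit of complex IV, was at 6265 vs 1599.7 FPKM (-1.79) and mt-Atp8 at 459 vs 101 FPKM (-2.0), whereas mt-Nd5 was at 1435 vs 2903 FPKM (1.2) and mt-Nd3 at 43.6 vs 95 FPKM (1.28). The most abundant of the others, mt-Cytb and mt-Nd1, read 5353 vs 3197 FPKM (-0.56) and 4626 vs 3880.5 FPKM (-0.07). The mitochondrial genes are transcribed as long shared precursors and lie next to each other, mt-Atp8 overlaps mt-Atp6, and nuclear copies of mitochondrial sequence exist, so values of single mitochondrial genes are uncertain. Citric acid cycle genes had a median of -0.18, with 2 higher and 1 lower of 25. The higher genes were Mdh2 at 252 vs 449 FPKM (1.01) and Fh1 at 105 vs 192 FPKM (1.04).

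**Figure D3:**
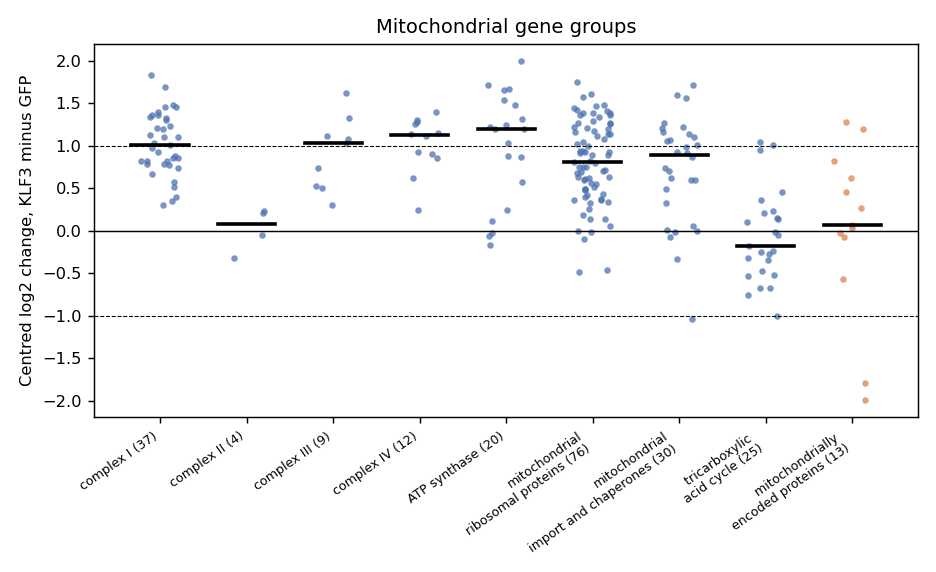
Centred log2 change (vertical axis) of each gene of 9 mitochondrial groups, with the number of genes in parentheses and the group median as a bar; dashed lines mark 2-fold above and below the median of all genes. Complexes I, III, IV and the ATP synthase have medians of about 1, complex II and the citric acid cycle lie near 0, and the 13 mitochondrially encoded genes (orange) spread from -2.0 to 1.28.

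Energy metabolism outside the mitochondrion changed little as a group. Glycolysis genes had a median of -0.01, with 1 higher and 1 lower of 22: hexokinase 2 (Hk2) was at 45.3 vs 147 FPKM (1.86) and the platelet-type phosphofructokinase Pfkp at 86.1 vs 33.9 FPKM (-1.14). The pyruvate kinase Pkm was at 1473 vs 1289.9 FPKM (-0.01). Sterol synthesis lay below the median (-0.57, span-adjusted -0.55), with 2 higher and 4 lower of 23. Idi1, an isomerase early in the pathway, was at 30.3 vs 5.12 FPKM (-2.18) and Insig1, which retains the sterol sensor in the endoplasmic reticulum, at 48.6 vs 18.6 FPKM (-1.16). Ebp, a late enzyme of the pathway, was higher at 23.3 vs 45.2 FPKM (1.11), and the abundant Fdps and Msmo1 read 203 vs 241 FPKM (0.43) and 135 vs 124 FPKM (0.06). Fatty acid synthesis genes had a median of -0.44, with the desaturase Fads2 at 30.6 vs 7.66 FPKM (-1.69), Acly, which supplies cytosolic acetyl-CoA, at 105 vs 46.1 FPKM (-0.99) and fatty acid synthase (Fasn) at 112 vs 94.9 FPKM (-0.06). Among hypoxia response genes the median was -0.48, and Bnip3 was at 55.6 vs 17.5 FPKM (-1.44).

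Redox, metal and iron genes contained several abundant genes that were higher. Glutathione, thioredoxin and metallothionein genes gave 12 higher and 0 lower of 34, with a median of 0.59 and 5 higher after the span trend was removed. The metallothioneins Mt1 and Mt2, which bind zinc and copper, were at 278 vs 977 FPKM (1.99) and 462 vs 1626 FPKM (1.99). Glutathione peroxidases Gpx1 and Gpx3 were at 243 vs 704 FPKM (1.71) and 11.3 vs 41.5 FPKM (1.96), and superoxide dismutase 1 (Sod1) at 1235 vs 2241 FPKM (1.04). Ferritin, which stores iron, was also higher, with Fth1 at 514 vs 1402 FPKM (1.62) and Ftl1 at 3284 vs 5819 FPKM (1.0), though the change of Ftl1 was -0.015 once trends with span, transcript length and GC were removed. Ncoa4, the receptor for the breakdown of ferritin, was among the largest falls, and Ireb2, the iron-responsive protein that represses ferritin translation, was at 22 vs 8.42 FPKM (-1.11). The gene of the iron exporter ferroportin, Slc40a1, was at 0.42 vs 1.95 FPKM (1.23). The iron uptake and haem synthesis list as a whole gave 4 higher (21.1%) and 2 lower (10.5%) of 19. Its median was 0.24 and its span-adjusted median -0.04.

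Proteasome genes and genes of entry into the endoplasmic reticulum were more often higher than lower, unlike the ubiquitin-specific proteases described below. The proteasome gave 10 higher and 0 lower genes of 47, with a median of 0.69 and a span-adjusted median of 0.49, with 4 higher after the span trend was removed. Psmb10 and Psmb9, catalytic subunits of the immunoproteasome, were at 11.5 vs 40.7 FPKM (1.91) and 1.83 vs 5.31 FPKM (1.34), and the constitutive Psmb6 at 361 vs 697 FPKM (1.13). The translocon and signal peptidase genes gave 7 higher and 0 lower of 29 (5 higher after the span trend was removed), with Sec61g at 104 vs 483 FPKM (2.38) and Sec61b at 87.4 vs 206 FPKM (1.41). Folding and stress genes of the endoplasmic reticulum showed no such shift, with a median of 0.11 and 2 higher and 1 lower of 33. The lectin chaperone Canx was at 184 vs 78.1 FPKM (-1.05) and the chaperones Calr and Hsp90b1 at 719 vs 783 FPKM (0.3) and 459 vs 408 FPKM (0.01). Among cytosolic chaperones, Hspb1 was at 193 vs 590.0 FPKM (1.79), Hsp90aa1, the inducible HSP90, at 2503 vs 892 FPKM (-1.31) and Hspa8 at 2426 vs 2151 FPKM (0.01).

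Lysosomal genes had a median of -0.12, with 6 higher and 2 lower of 49. The higher genes were the cysteine proteases Ctsh, Ctsl, Ctsz and Lgmn and the membrane proteins Cd63 and Cln3. Cathepsin H (Ctsh) was at 2.67 vs 37.6 FPKM (3.57), the tetraspanin Cd63 at 75.8 vs 233 FPKM (1.78) and cathepsin L (Ctsl) at 79.9 vs 218 FPKM (1.62). The abundant membrane protein Lamp1 was at 199 vs 145 FPKM (-0.28). Trafficking genes were mostly between the limits, with 14 higher and 5 lower of 108 for sorting and endocytosis and 2 and 1 of 43 for Rab GTPases. Solute carriers, the largest transport family, had a median of -0.05, with 11 higher (5.82%) and 8 lower (4.23%) of 189. Of those higher, 6 were below 1 FPKM in GFP-overexpressing cells. Of the 8 lower, 6 were at or above 1 FPKM in KLF3-overexpressing cells. The choline transporter-like Slc44a3 was at 4.72 vs 16.3 FPKM (1.77) and the mitochondrial carrier Slc25a36 at 72.3 vs 19.6 FPKM (-1.66). Ion channels gave 1 higher and 4 lower of 55, and 3 of the lower were at or above 1 FPKM in KLF3-overexpressing cells.

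In RNA processing, the small core proteins and the larger regulators differed. Core snRNP proteins of the spliceosome gave 13 higher and 0 lower of 40 (median 0.54, span 10.2 kb, span-adjusted 0.33 with 4 higher). Snrpg and Snrpd2, of the Sm ring, were at 303 vs 724 FPKM (1.43) and 369 vs 781 FPKM (1.26). SR proteins and hnRNPs gave 0 higher and 3 lower of 47 (median -0.13). The splicing repressor Ptbp2 was at 16.9 vs 4.71 FPKM (-1.47) and the abundant Hnrnpa3 at 1302 vs 610.5 FPKM (-0.91). RNA polymerase subunits had 4 higher and 0 lower of 27 (median 0.4, span-adjusted 0.11), with the small subunit Polr2l at 11.8 vs 38.3 FPKM (1.8). The nuclear pore had 2 higher and 4 lower of 26 (median -0.39, span-adjusted -0.19), with Nup98 at 8.96 vs 1.33 FPKM (-1.92), Nup153 at 26.4 vs 5.65 FPKM (-1.86) and Nup214 at 27.9 vs 88.8 FPKM (1.81). Within TFIID, Taf9 was among the largest falls, while Taf10 was at 184 vs 397 FPKM (1.28).

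C2H2 zinc finger genes of the Zfp family, many of which encode KRAB repressors that recruit TRIM28 to retrotransposons, lay below the median. Of 297, 7 were higher and 24 lower, with a median of -0.41, and 229 lay below the median of all genes. The share called lower, 8.08%, is near the 5.97% of all genes, whereas the share called higher was 2.36% against 10.2%. Their median span of 15.6 kb was below that of all genes, and the span-adjusted median was -0.46. Of the 24 lower genes, 16 were at or above 1 FPKM in KLF3-overexpressing cells, and the others passed the limit through the GFP condition. Zfp59 was at 6.25 vs 0.16 FPKM (-2.46) and Zfp317 at 10.9 vs 1.73 FPKM (-1.95). Zfp445, which helps to keep imprints, was listed at the lowest value in KLF3-overexpressing cells and at 5.62 FPKM in GFP-overexpressing cells. Zfp57, the main keeper of imprints and among the most abundant, was at 200.5 vs 304 FPKM (0.78). Zbtb genes had a median of -0.24, with Zbtb44 at 16.2 vs 4.27 FPKM (-1.52).

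Chromatin regulators were also more often lower than higher. Histone methyltransferases and demethylases gave 3 higher and 14 lower of 61, with a median of -0.46. Their median span was 57.3 kb and the span-adjusted median -0.29, with 11 lower. Of the 14 lower before this adjustment, 12 were at or above 1 FPKM in KLF3-overexpressing cells. Kdm6a, the X-linked H3 lysine 27 demethylase UTX, was at 6.72 vs 1.48 FPKM (-1.46), and its Y-linked counterpart Uty at 3.56 vs 0.1 FPKM, the lowest value. Acetyltransferases and deacetylases gave 0 higher and 6 lower of 35 (median -0.34), and 2 lower after the span trend was removed (median -0.2). Examples were Kat6b at 22.9 vs 4.41 FPKM (-1.96) and Ep300 at 8.75 vs 2.86 FPKM (-1.16). Polycomb genes gave 0 higher and 4 lower of 33, and 1 and 2 after the span trend was removed. Rybp, of variant PRC1, was at 13.4 vs 2.87 FPKM (-1.72). Rnf2, the ubiquitin ligase of PRC1, was at 53.1 vs 19.5 FPKM (-1.22). Remodellers gave 2 higher and 5 lower of 49, and their median of -0.22 became 0.01 after the span trend was removed.

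In the DNA methylation list 5 genes were higher and 2 lower of 19. The maintenance methyltransferase Dnmt1 was at 51.8 vs 16.9 FPKM (-1.38). The de novo enzyme Dnmt3a, given above, and its cofactor Dnmt3l, at 41.1 vs 129.6 FPKM (1.81), were higher. Histones gave 7 higher and 0 lower of 26, with a median of 0.58. Of the 7 higher, 4 were below 1 FPKM in GFP-overexpressing cells and passed the limit through the KLF3 condition. The median span of the histone genes was 0.972 kb and their span-adjusted median -0.04, so that the sign turned. Most replication-dependent histone mRNAs carry no poly(A) tail, so poly(A) libraries measure them poorly. The variants H2afz and H3f3a, which are polyadenylated, were at 827 vs 825 FPKM (0.17) and 471 vs 434 FPKM (0.06), and the linker histone H1fx at 25.7 vs 63 FPKM (1.44).

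Cell cycle genes showed falls in the chromosome and repair machinery. Cohesin and condensin genes had the lowest median of the groups with 5 or more genes, -0.66, with 1 higher and 7 lower of 22 (span 46.3 kb, span-adjusted -0.37 with 5 lower). The cohesin ring subunit Rad21 was at 83.3 vs 27 FPKM (-1.41), its loader Nipbl at 7.18 vs 1.65 FPKM (-1.45) and the condensin ATPase Smc2 at 23.6 vs 6.15 FPKM (-1.6), whereas Ncapd2 was higher at 163 vs 302 FPKM (1.06). Homologous recombination and Fanconi genes gave 0 higher and 9 lower of 40 (median -0.36, span-adjusted -0.33 with 5 lower). Brca1 was at 20.8 vs 6.79 FPKM (-1.3) and Fancd2 at 17.3 vs 5.4 FPKM (-1.34). The kinetochore list, in comparison, had a median of -0.11, and the replication list -0.07. Among replication genes, Pold1 was at 66.2 vs 146 FPKM (1.31) and Pola1, the catalytic subunit of the polymerase that works with primase, at 13.7 vs 4.24 FPKM (-1.31).

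Of 57 genes of the cyclins, their kinases and inhibitors, 3 were higher and 3 lower, with a median of -0.29. This is a smaller share of higher genes than among all genes. The higher genes were the inhibitors Cdkn1c, given above, Cdkn2b and Cdkn2a, which encodes an INK4 inhibitor and ARF, at 7.45 vs 16.2 FPKM (1.21). The lower genes were Wee1, given above, Rbl2 and Ccnt2. The abundant Cdk4 was at 639 vs 1008 FPKM (0.84) and Cdk1 at 266 vs 205 FPKM (-0.2). Gadd45a and Gadd45b were at 44.7 vs 96.2 FPKM (1.27) and 16.8 vs 30.5 FPKM (1.0), so that all 3 Gadd45 genes were higher, Gadd45b only just. The p53 gene (Trp53) was at 205 vs 208 FPKM (0.2), and the p53 target list gave 3 higher and 1 lower of 29, with Phlda3 at 26.4 vs 91.2 FPKM (1.93) and Mdm4, a p53 inhibitor, at 43.9 vs 15.4 FPKM (-1.27). Of the apoptosis genes, Apaf1, the apoptosome scaffold, was at 7.41 vs 21.6 FPKM (1.61), and Casp2 at 8.07 vs 2.07 FPKM (-1.38). The survivin gene Birc5 was at 174 vs 315 FPKM (1.03). Ubiquitin-specific proteases gave 4 higher and 11 lower of 44, with a median of -0.51 (span 58.2 kb, span-adjusted -0.29 with 4 lower). Usp8, which acts on endosomes, was at 22.4 vs 6.59 FPKM (-1.44), and Usp7 at 89.1 vs 43.4 FPKM (-0.84).

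**Figure D4:**
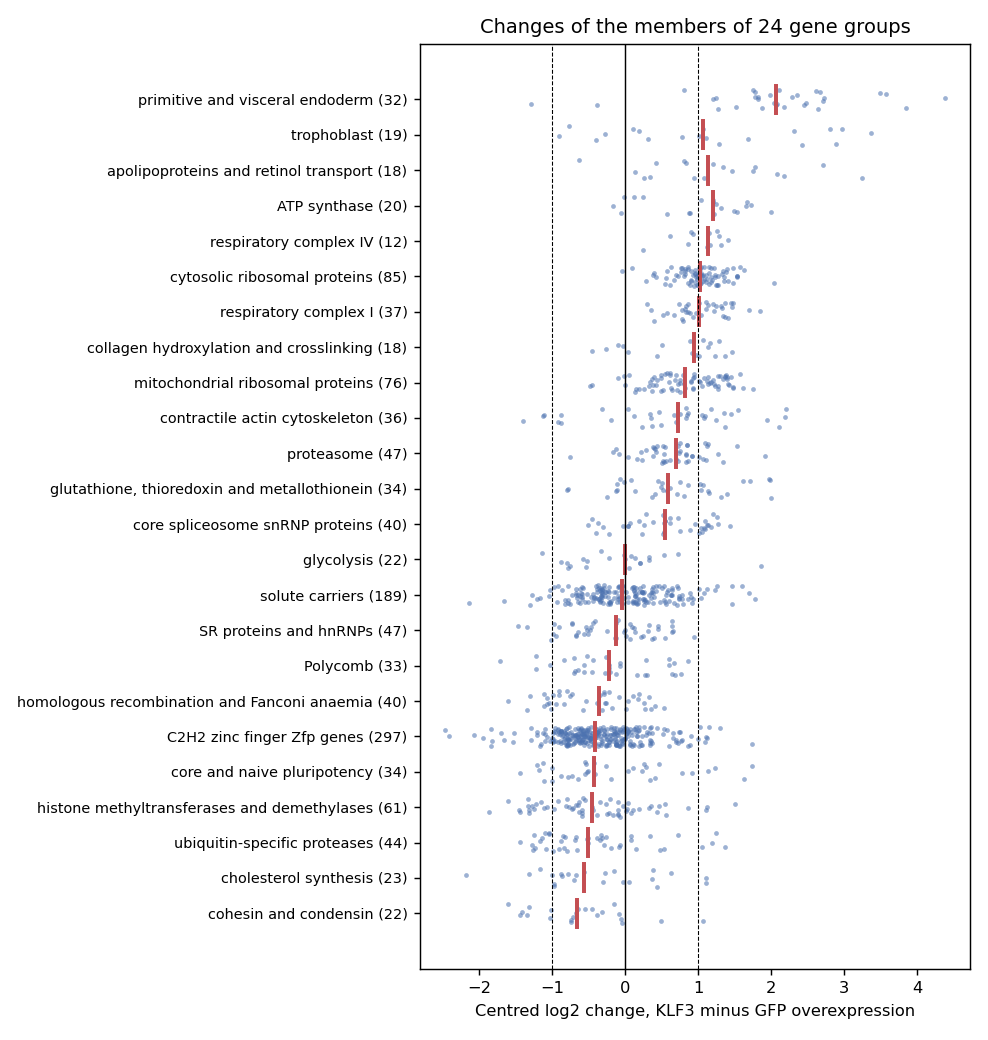
Centred log2 change (horizontal axis) of every member past the expression limit in 24 gene groups, 1 point per gene, with the group size in parentheses and the group median as a red bar; dashed lines mark 2-fold above and below the median of all genes. The endoderm group has the highest median at 2.06, with changes from -1.29 to 4.38. Ribosomal and respiratory groups have medians from 0.81 to 1.2, and cohesin and condensin genes have the lowest of these medians at -0.66.

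Families defined by the letters of the gene symbol alone gave a similar order. Stems such as Rpl, Rps, Mrpl, Mrps, Usp and Zfp hold many of the same genes as the groups above, so this order is not independent of them. Of 66 symbol stems with at least 15 genes past the limit, the highest medians were those of Cox (1.03, 24 genes), Rpl (0.98, 58), Rps (0.95, 49), Mrpl (0.82, 47) and Mrps (0.81, 29). The lowest were those of Kdm (-0.73, 15 genes), Rad (-0.7, 18), Kif (-0.58, 29), Usp (-0.51, 44) and Zfp (-0.42, 279). Of these 5 lowest stems, Zfp alone had a median span below that of all genes, 15.6 kb, and after the span trend was removed it had the lowest value of the 5, -0.46. Tmem and Ccdc genes, named for a transmembrane or coiled-coil part, were near the median of all genes, at 0.06 and 0.06.

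Across all genes, the change moved with gene size. In 5 equal groups by genomic span, the median change was 0.53 for genes up to 7.41 kb, 0.17, -0.04 and -0.26 for the groups between, and -0.32 for genes over 60.5 kb. Of the shortest group 24.6% were higher and 2.59% lower, and of the longest group 3.94% and 9.97%. Transcript length and GC content moved with the change as well. Of 5 equal groups, the genes with the shortest transcripts had a median of 0.45 and that with the longest -0.33, while those with the lowest transcript GC had -0.33 and that with the highest 0.31. The mean level of the 2 conditions moved with the change too. In 5 equal groups by mean level, the median was 0.49 for genes from 39.9 FPKM, with 23.2% higher. It was -0.12 for the lowest group and -0.21 for genes from 2.97 to 7.01 FPKM, with 4.87% higher in the latter. Spearman's rho across genes was -0.40 for span, -0.37 for transcript length, 0.32 for GC and 0.26 for mean level. Genes are not independent replicates, and all points share the same libraries. Whether these relations arose in the cells or in the libraries was not tested. Of the groups above, the ribosomal, respiratory and snRNP genes are shorter and the motor, chromatin and cohesin genes longer than the median gene.

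**Figure D5:**
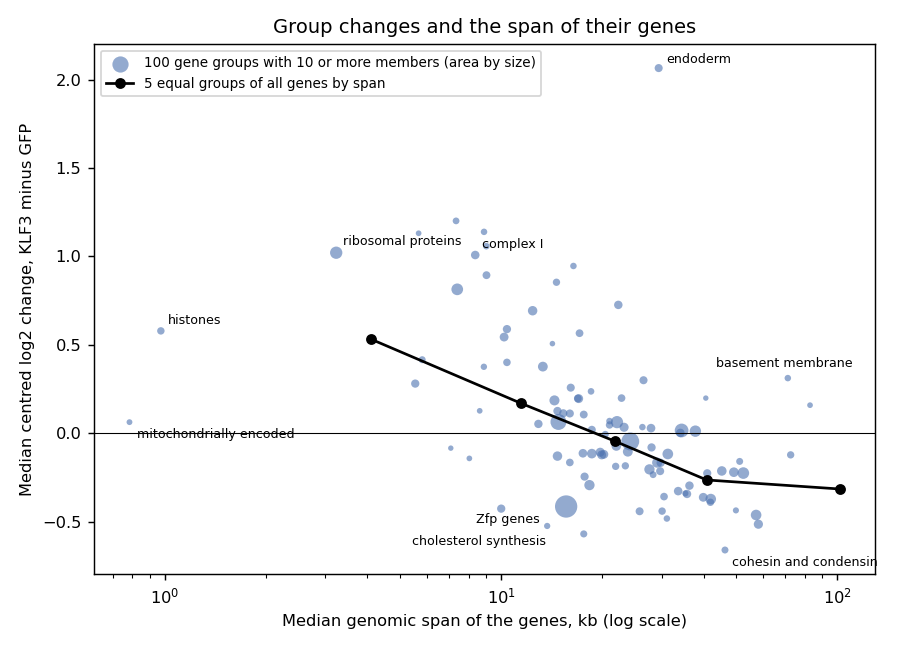
Median centred log2 change of each gene group with 10 or more members (vertical axis) against the median genomic span of its genes (horizontal axis, log scale); the black line joins the medians of 5 equal groups of all genes by span. The endoderm group lies far above this line, the basement membrane group above it, and Zfp, cholesterol synthesis and cohesin genes below it.

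Medians by chromosome differed little. The 19 autosomes ranged from -0.16 (chromosome 18) to 0.14 (chromosome 19), and from -0.12 to 0.05 after the span trend was removed. The X chromosome had a median of -0.11 over 361 genes. The Y chromosome stood apart. Eif2s3y, given above, Uty at 3.56 vs 0.1 FPKM and Ddx3y at 3.34 vs 0.1 FPKM were all lower in KLF3-overexpressing cells, the last 2 at the lowest value, and Uba1y, below the limit, was at 0.41 vs 0.1 FPKM. Their X-linked counterparts were also lower, Eif2s3x at 46.8 vs 14.3 FPKM (-1.46), Kdm6a as given above and Ddx3x at 92.8 vs 39 FPKM (-1.05). Erdr1, which the table places on the Y chromosome and which lies in the region shared by X and Y, was at 78.6 vs 246 FPKM (1.81). The control condition therefore held Y-linked transcripts that were almost missing in the KLF3 condition, and what else differs between these clones cannot be told apart from the transgene.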

How the data were processed

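Poly(A) RNA-seq of 4 mESC samples, 2 overexpressing KLF3 and 2 overexpressing GFP, was used. The authors aligned reads to mm10 with STAR (version 2.6.0 in the submitters' processing notes) using the GENCODE annotation, and deposited FPKM values from Cufflinks 2.2.1 as 1 mean per condition. Library depth, the spread between samples and the counting of reads shared between genes are not given in the sources used here, so no test was run and values carry no error. Of 14333 rows, 14 repeated a gene at another locus, and of these the row with the highest mean was kept. Gene symbols turned into dates (22 genes) were restored from gene identifiers.

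Log2(FPKM + 1) differences were centred on the median of the 11179 genes whose mean reached 1 FPKM, with pandas 2.3.3. The span trend was a lowess fit with a fraction of 0.3 (statsmodels 0.14.6) on log10 genomic span. Calculations were tested on simulated data. Promoters were matched to RefSeq by identifier, symbol or synonym.

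The comparison and the gene lists were chosen with earlier results of these data known, and 6 lists, among them mitochondrially encoded proteins and the endoderm subgroups, were added after values were seen. Named genes were the 15 largest rises and falls without clone-style symbols, up to 4 genes per list with the largest change and 2 with the highest level, all members of lists of up to 12, and genes named by the study or Y-linked. Besides markers and genes below the limit, Ddx3x, Eif2s3x, Fbln1, Ireb2, Lamc1, Lefty2, Nf2, Nid1, Plac1, Zscan4c and genes named without values to complete a count were chosen after their values were seen. A few genes that the rule names are not reported here.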

Additional observations from a re-analysis of the deposited data

How the results depend on the processing

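No paired analysis was possible because the table holds 1 mean per condition, and replicates could not be left out in turn for the same reason. The count of higher genes (1137) became 738 without centring, 606 with a pseudocount of 5, 757 with a minimum mean of 5 FPKM and 435 when FPKM were scaled to the same sum without cytosolic ribosomal protein genes and not centred. The count of lower genes (667) became 1133 without centring, 1171 with a pseudocount of 0.1, 223 with a pseudocount of 5 and 1836 under the same-sum scaling. Removing trends with span, transcript length and GC, an alternative chosen after seeing the data, gave 671 higher and 543 lower genes. Under the other settings (no minimum, median-ratio scaling, quantile normalization, the span trend removed, clone-style symbols left out and, chosen after seeing the data, genes at the lowest value left out) both counts stayed within 1.5 times.

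Of 50 gene lists with a median beyond 0.3 in either direction, all kept their sign except 2 under the same-sum scaling, 1 with the span trend removed and 2 with the 3 trends removed. Under the same-sum scaling the medians of translation initiation and elongation factors and of basement membrane genes turned to -0.018 and -0.048. Histones turned to -0.042 with the span trend and -0.327 with the 3 trends removed, and the exosome and mRNA decay list to 0.052 with the 3 trends. Symbol stems turned for Arl (-0.033 same sum, -0.111 with 3 trends), Eif (-0.058 quantile, -0.032 same sum), Hist (-0.31 span, -0.399 with 3 trends) and Polr (-0.002 same sum). Many named genes kept their sign but lost their call. Of 420 named genes past 2-fold, 306 stayed past 2-fold with the span trend removed, 320 under the same-sum scaling and 269 with a pseudocount of 5. With the 3 trends removed, 249 of 419 stayed past 2-fold. Of the named genes past 2-fold, Ftl1 (-0.015), Hist1h2ag (-0.073) and Tmsb10 (-0.023) turned with the 3 trends, and none under the other settings. The cause of these turns was not tested. Differences between small changes cannot be resolved, since neither depth nor spread is known.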
